A study of Mus musculus with 4 samples.

Results

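PRDM6 ChIP peaks that lay in first introns were studied in cultured mouse outflow tract SMCs. A peak was a member if the deposited annotation placed it in intron 1 of a transcript, which held for 1765 of the 13977 peaks and for 35.2% of the 5016 intronic peaks. The cells were taken from the vessels at the outlet of the heart of late-gestation embryos, and all of them carried a lentivirus that expressed FLAG-tagged PRDM6. There were 2 PRDM6 ChIP samples, precipitated with an anti-FLAG antibody, and 2 Input samples of the same infected cells. The assay thus recorded an overexpressed, tagged protein, and the series held no cells without the virus. The replicates were described as separate precipitations of 1 sample in one place and as independent in another, so their spread may be technical.

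PRDM6 is a PR domain protein with zinc fingers that is enriched in SMCs and is known for its part in SMC identity and in closure of the ductus arteriosus, the fetal vessel between the pulmonary artery and the aorta. An intron is transcribed and then spliced out of the RNA. First introns are typically the longest of a gene, begin a short way downstream of the transcription start site (TSS), and often hold enhancers and internal promoters. AP-1 (Jun and Fos proteins) and TEAD factors, which act with YAP and TAZ, bind short DNA motifs in many enhancers of mesenchymal cells.

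The genome sequence at the strongest members is shown first, because the motifs described further on were searched in it. Each sequence is 201 bases of the plus strand of mm10, centred on the matched summit, and was read from the GRCm38 reference. Capitals mark AP-1 (TGACTCA or TGAGTCA) and TEAD (AGGAATGC, AGGAATGT, GGGAATGC or GGGAATGT) matches on either strand. The following 4, from the 10 strongest members, held neither motif in this window. Ptprm and Cald1 had a GA run at the summit, and AC158982.1 had a GT run.
Ptprm, chr17:67241958-67242158: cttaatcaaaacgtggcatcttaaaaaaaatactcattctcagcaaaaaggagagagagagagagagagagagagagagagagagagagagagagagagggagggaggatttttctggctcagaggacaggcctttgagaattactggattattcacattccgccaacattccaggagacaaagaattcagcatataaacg
Cald1, chr6:34610154-34610354: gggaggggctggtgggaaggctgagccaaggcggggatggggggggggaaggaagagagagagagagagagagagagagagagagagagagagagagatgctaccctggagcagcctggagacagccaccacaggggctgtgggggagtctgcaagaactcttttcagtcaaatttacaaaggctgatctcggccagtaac
Gm48336, chr13:53033513-53033713: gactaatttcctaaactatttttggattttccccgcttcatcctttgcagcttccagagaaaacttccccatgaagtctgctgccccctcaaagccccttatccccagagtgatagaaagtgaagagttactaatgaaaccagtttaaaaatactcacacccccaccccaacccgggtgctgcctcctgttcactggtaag
AC158982.1, chr14:123173153-123173353: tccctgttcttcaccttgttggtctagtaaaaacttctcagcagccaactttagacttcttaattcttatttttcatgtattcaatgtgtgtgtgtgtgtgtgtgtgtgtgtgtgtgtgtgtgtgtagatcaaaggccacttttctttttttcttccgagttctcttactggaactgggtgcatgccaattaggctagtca
The next sequences held AP-1 matches. The first 5 belong to the 10 strongest members. Those at Col5a2 and Acvr1 were chosen after their values were seen, as genes of the matrix and BMP lists, and the Col5a2 window lies at a weaker peak of the host, with a matched value of 5.69.
1810058I24Rik, chr6:35256847-35257047: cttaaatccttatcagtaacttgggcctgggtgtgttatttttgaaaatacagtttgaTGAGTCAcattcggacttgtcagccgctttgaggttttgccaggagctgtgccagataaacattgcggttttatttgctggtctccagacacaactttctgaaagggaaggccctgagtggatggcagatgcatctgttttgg
Bmp6, chr13:38410595-38410795: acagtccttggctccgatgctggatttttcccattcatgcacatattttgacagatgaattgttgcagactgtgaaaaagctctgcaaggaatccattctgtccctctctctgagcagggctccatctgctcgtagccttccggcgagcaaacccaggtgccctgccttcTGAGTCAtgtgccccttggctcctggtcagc
Parp16, chr9:65200698-65200898: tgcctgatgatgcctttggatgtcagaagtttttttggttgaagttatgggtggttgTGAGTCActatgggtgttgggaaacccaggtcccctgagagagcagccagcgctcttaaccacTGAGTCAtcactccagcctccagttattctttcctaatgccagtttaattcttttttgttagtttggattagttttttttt
Sema3e, chr5:14073258-14073458: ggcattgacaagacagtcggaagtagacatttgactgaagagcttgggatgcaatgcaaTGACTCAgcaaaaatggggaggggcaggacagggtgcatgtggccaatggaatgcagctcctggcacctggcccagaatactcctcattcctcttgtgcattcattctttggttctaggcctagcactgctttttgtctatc
Kcnab1, chr3:65138624-65138824: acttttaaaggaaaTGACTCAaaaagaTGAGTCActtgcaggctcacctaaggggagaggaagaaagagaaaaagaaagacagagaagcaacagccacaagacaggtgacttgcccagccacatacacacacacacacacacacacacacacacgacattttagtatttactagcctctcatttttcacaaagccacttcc
Col5a2, chr1:45495162-45495362: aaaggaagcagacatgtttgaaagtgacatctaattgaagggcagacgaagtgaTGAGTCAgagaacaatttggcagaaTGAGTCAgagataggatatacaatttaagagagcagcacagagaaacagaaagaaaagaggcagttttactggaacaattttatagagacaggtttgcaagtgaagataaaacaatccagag
Acvr1, chr2:58505871-58506071: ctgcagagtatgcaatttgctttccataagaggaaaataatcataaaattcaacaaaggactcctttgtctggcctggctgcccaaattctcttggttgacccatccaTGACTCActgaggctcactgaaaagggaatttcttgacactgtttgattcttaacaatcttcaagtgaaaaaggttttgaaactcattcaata
The last 2 held a TEAD match and lay at Runx2 and Rbpj, genes of the transcription factor list. They were also chosen after their values were seen, and the Rbpj window lies at a second peak of the host, with a matched value of 9.57.
Runx2, chr17:44767741-44767941: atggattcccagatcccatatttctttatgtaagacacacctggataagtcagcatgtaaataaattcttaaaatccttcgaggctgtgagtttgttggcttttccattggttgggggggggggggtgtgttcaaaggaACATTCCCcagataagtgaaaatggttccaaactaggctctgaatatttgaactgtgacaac
Rbpj, chr5:53565455-53565655: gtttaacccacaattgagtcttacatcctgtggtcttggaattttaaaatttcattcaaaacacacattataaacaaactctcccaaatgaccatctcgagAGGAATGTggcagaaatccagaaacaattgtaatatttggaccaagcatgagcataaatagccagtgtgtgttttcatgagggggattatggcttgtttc

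The 10 strongest members had matched −log10 p values from 18.89 to 28.24. Each value is the p-value that MACS2 gave a peak against its own input, and the value of a matched peak was the smaller of both replicates. The strongest was in Ptprm, a receptor-type tyrosine phosphatase of cell-cell contacts, at chr17:67240597-67242755, with 28.80 in the first-listed and 28.24 in the second-listed replicate. It lay 112015 bp from the TSS in an intron of 162585 bp. Next came Cald1, which encodes the actin-binding protein caldesmon of the contractile apparatus, at chr6:34609421-34610594, with 24.27 and 24.33. At its summit lay 32 and 31 fragments, first-listed replicate first, against background means of 2.61 and 2.39 fragments. Both replicates gave the Cald1 peak nearly the same value and height.

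Noncoding hosts took 3 of these 10 places. The lincRNA 1810058I24Rik (chr6:35256150-35257350) had values of 22.33 and 28.97. The lincRNA Gm48336 (chr13:53033004-53034038) had 22.08 and 27.79, and the annotation assigned its peak to the nearby Nfil3, a bZIP transcription factor. The processed transcript AC158982.1 (chr14:123172592-123173664) had 24.27 and 19.90. In these 3, the replicates lay further apart than at Ptprm or Cald1.

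Ligands were represented by Bmp6, a BMP family ligand, and Sema3e, a secreted guidance cue that signals through plexin D1. Bmp6 (chr13:38410243-38410882) had values of 21 and 20.99, with heights of 29 and 28 fragments, 65588 bp from its TSS. Sema3e (chr5:14073133-14073533) had 21 and 19.90, with heights of 29 and 27 fragments. The peaks were 640 bp and 401 bp wide, beside a median of 575 bp over all members. Others of the 10 were in Parp16, an ADP-ribosyltransferase of the endoplasmic reticulum (20.80 and 26.63), and in Kcnab1, a potassium channel beta subunit (18.89 and 20.99). All 10 had the highest possible IDR score of 1000, which 12 members reached.

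**Figure D1:**
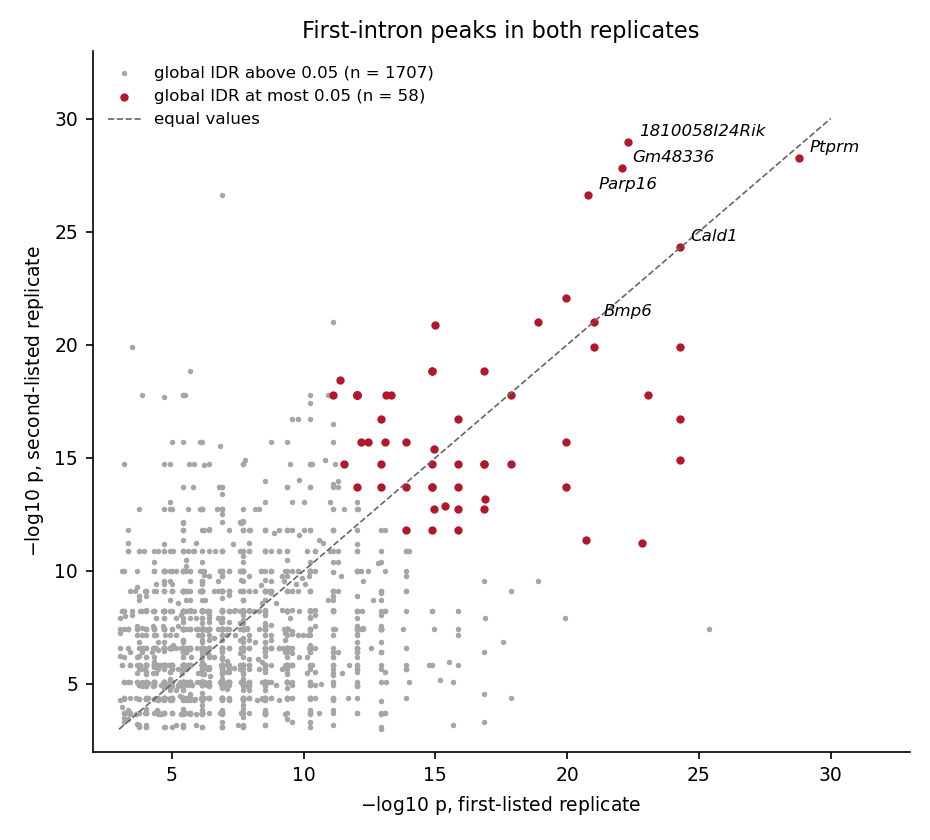
Each point is 1 of the 1765 first-intron peaks, with its −log10 p in the first-listed replicate on the x axis and in the second-listed replicate on the y axis. Red points are the 58 peaks that passed the IDR limit of 0.05, grey points are the others, the dashed line marks equal values, and the 6 strongest peaks carry the names of their hosts, with Ptprm at the upper right.

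Most members were weak, as were most peaks of the whole list. The matched −log10 p had a median of 5.56, with quartiles of 4.46 and 7.14, beside a median of 5.53 and quartiles of 4.39 and 6.92 over all peaks, and the lowest member was at 3.03. The IDR, or irreproducible discovery rate, is estimated from the rank of each matched peak in each replicate. The global IDR used here is the expected share of irreproducible peaks among all that rank at least as high, not a chance for 1 peak. The global IDR limit of 0.05 was passed by 58 members (3.29%, 95% Wilson interval 2.55% to 4.22%), and by 3.33% of all peaks. A limit of 0.01 left 18 of the 1765 members and 139 of the 13977 peaks, while 708 members (40.1%) and 41.4% of all peaks shared the lowest score of the list. Near the limit of 0.05, 4930471E19Rik lay inside it with a score of 545, and Pkig just outside it with 537. The replicate values were loosely related over the members, with a Spearman correlation of 0.256 across the 1765 peaks, which share libraries and are not replicates. Heights could be recovered for both replicates at 685 members, and only 36 of these were 20 fragments or higher in both. A height was recovered only where the p-value fell on the Poisson tail of the fixed background mean of its replicate. The height values therefore describe this subset and not members in general. Where heights were recovered, the median was 14 fragments in each replicate. Some members were high in 1 replicate only. A peak in Cep170 had 25.38 in the first-listed and 7.42 in the second-listed replicate, and a peak in Enox1 had 6.92 and 26.63 (both chosen after their values were seen).

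Of the 58 members that passed the IDR limit, the following were named after their values were seen. Sgce and Sgcd encode sarcoglycans of the dystrophin complex, and their peaks had matched values of 17.78 and 12.76. Mrvi1 encodes a substrate of cGMP-dependent kinase that acts on calcium release in smooth muscle, and its peak reached 12.95. Stim1, the calcium sensor of the endoplasmic reticulum, had a peak at 14.71. The replicates gave 17.86 and 17.78 at Sgce, 16.85 and 12.76 at Sgcd, 12.95 and 16.74 at Mrvi1, and 16.85 and 14.71 at Stim1. Synpo, a relative of Synpo2 that binds actin, had 23.05 and 17.78, and Maf, a bZIP factor, had 14.87 and 18.83. Among the hosts of the 58, the readthrough gene Gm20388 alone held 2.

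Hosts were of several kinds. Of the 1752 members whose transcript was found in GENCODE M21, all had their summit inside the named intron, and 1345 (76.8%) lay in a protein-coding gene, 278 in a lincRNA, 64 in an antisense transcript and 49 in a processed transcript. Of the 1345, 1061 (78.9%) were also in intron 1 of the principal transcript of the gene, 56 were in a later intron of it and 228 lay outside it. Membership therefore depended on which transcript was used. The annotation gave a gene other than the host to 129 of the 1450 members whose host had an Entrez gene. Because peaks within 3 kb of a TSS were classed as promoter peaks, members began further in: 57 members lay within 3 kb of the host TSS, and none of these hosts had an Entrez gene. The median member lay 23886.5 bp from the host TSS in an intron of 55479 bp, and 205 members lay over 100 kb away. Positions were spread over the intron, from 98 members in the 10% of the intron next to the first exon to 210 in the sixth such part. In 614 members (34.8%) the peak lay upstream of the TSS to which the annotation assigned it.

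The 1765 members fell in 1049 hosts. There was 1 member in 656 hosts, 2 in 227, and 3 to 5 in 144, whereas 22 hosts held 6 or more. Neighbouring members of a host lay a median of 7343 bp apart, and 312 of the 716 such gaps (43.6%) were at most 5 kb.

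Ext1, which encodes a polymerase of heparan sulfate chains, held the most, with 12 members between chr15:53113010 and chr15:53342572 in a first intron of 236830 bp. Their matched values ran from 3.05 to 7.97, and none passed the IDR limit. At 213908 bp and 213311 bp from the TSS, neighbouring peaks had values of 7.17 and 8.94, and of 12.92 and 7.42. The strongest, at 39776 bp, had 7.97 and 11.81, and the one nearest the TSS, at 4241 bp, had 6.42 and 6.96. All 12 Ext1 peaks were thus at most 12.92 in either replicate.

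Rbms1, an RNA-binding protein gene, held 9 members, with matched values from 3.08 to 6.92. Within them, 5 peaks stood between 57662 bp and 61384 bp from the TSS, and neighbouring Rbms1 members were a median of 3350 bp apart. The strongest of the group had 6.92 and 8.25.

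Cald1 held 7 members, which differed widely. Beside its peak of 24.27, the others had matched values from 3.03 to 8.52, the second strongest with 8.52 and 8.72 at 35184 bp from the TSS. At 39936 bp a Cald1 peak had 12.95 in the first-listed and 3.03 in the second-listed replicate.

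Phldb2, which encodes a protein that anchors microtubules at the cell cortex, held 7 members with matched values from 4.39 to 9.49. Its strongest peak had 9.49 and 14.71, and the annotation assigned that peak to Gm15638. In Col8a1, the alpha 1 chain of collagen VIII of vessel walls, 7 members ran from 3.05 to 8.25, the strongest with 12.03 and 8.25 at 7125 bp from the TSS. AC158982.1 also held 7, among them its peak of 19.90, and the annotation assigned all 7 to the locus AA536875. Gm20388 held 10 members in an annotated first intron that spans 4384418 bp, and these were assigned to 8 other genes, among them Gse1, Foxl1 and Galnt2.

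**Figure D2:**
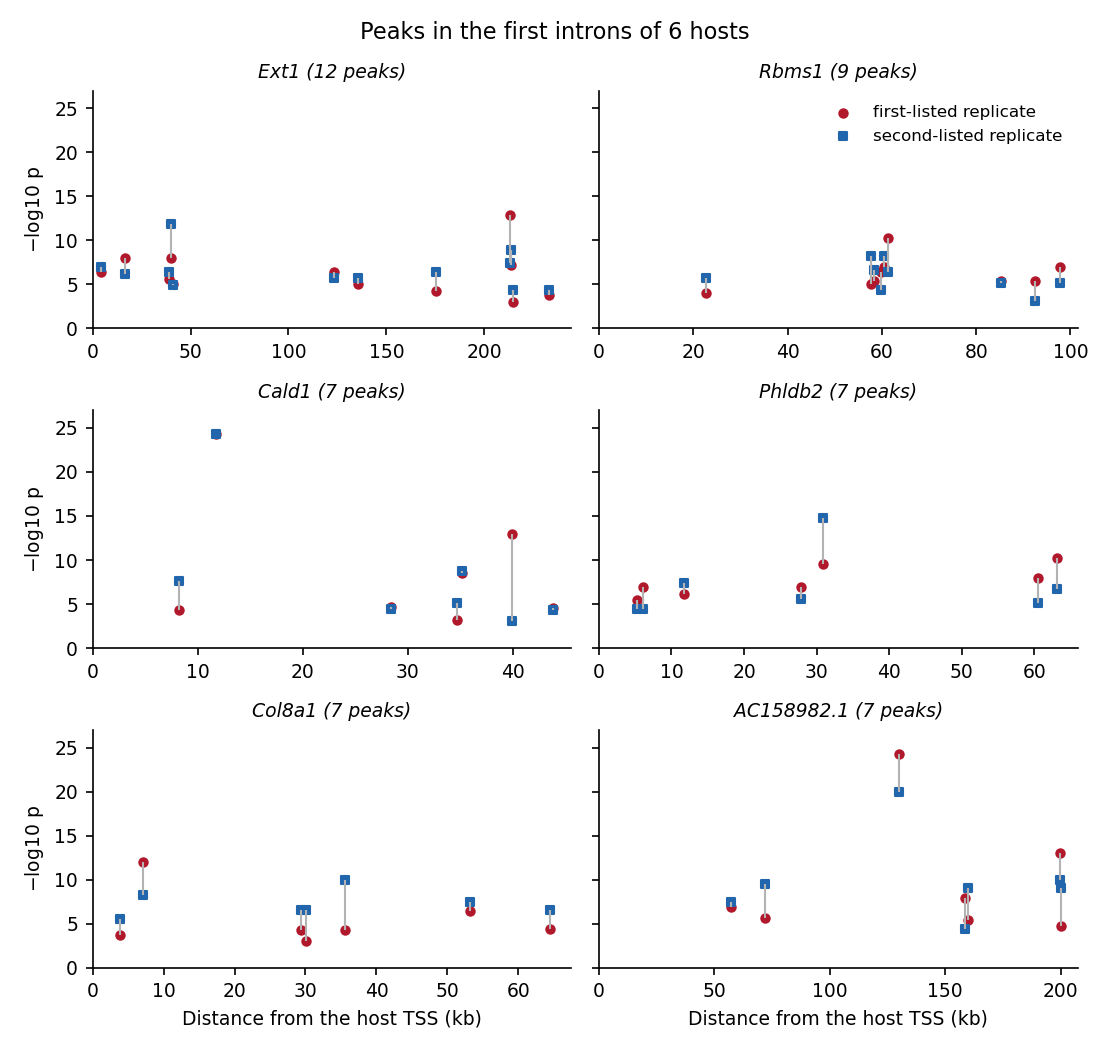
Each panel shows the members in 1 of 6 hosts, with the distance from the host TSS in kb on the x axis and −log10 p on the y axis. Circles are the first-listed and squares the second-listed replicate, joined by a grey line for each peak. Cald1 and AC158982.1 each held 1 peak of at least 19.90 in both replicates, and the Ext1, Rbms1, Phldb2 and Col8a1 peaks did not exceed 14.71.

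Genes with long first introns had members more often. Of 20320 protein-coding genes with introns, 768 (3.78%) hosted at least 1 member. The share was 0.321% for principal first introns under 1 kb, 0.794% for 1 to 10 kb, 7.4% for 10 to 30 kb, 22.7% for 30 to 100 kb and 35.5% for 100 kb or more. Peaks within 3 kb of a TSS were classed as promoter peaks, so short first introns could seldom host a member. The low shares of the shortest introns thus follow in part from that rule. The lists of genes below are set beside these shares without a test, since the lists were chosen with results of these data known. Their counts of members past the IDR limit, each out of few peaks, stand beside 3.29% of all members and 3.33% of all peaks.

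In the list of smooth muscle contractile and actin cytoskeleton genes, 13 of 44 genes (29.5%, against 3.78% of all genes) hosted 33 members, with a median first intron of 18994 bp in the list. Among them were Actn4, Cald1, Diaph1, Lpp, Myh9, Palld, Rock2, Sorbs2, Svil, Synpo2, Tpm1 and Vcl, which encode actin cross-linkers and anchors, myosin, tropomyosin and regulators of actin. Synpo2, an actin-bundling protein of Z-lines and stress fibres, had a peak with 11.29 and 13.97. Actn4, an actin cross-linker, had 8.52 and 9.10, and Sorbs2, an adaptor of stress fibres and adhesions, had 8.52 and 13.05. Of the 33, the Cald1 peak alone passed the IDR limit, which 3.33% of all peaks passed. None of Acta2, Myh11, Cnn1, Tagln and Mylk, canonical SMC marker genes, hosted a member. Acta2 had a peak in the promoter class, at its TSS, with a matched value of 7.42, and further peaks upstream. The promoter class took precedence over intron 1, so a promoter peak that reached into the intron could not be a member. The study reported a strong peak at an SRF-dependent enhancer in the first intron of Acta2. Whether the promoter-class peak (chr19:34254265-34255869) is that one was not tested, so the lack of a member does not mean a lack of binding in that intron. Mylk had 1 assigned peak, in the promoter class upstream of its TSS (6.61), and no peak was assigned to Myh11, Cnn1 or Tagln.

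Matrix genes had members in 6 of 50 cases (12%), with 19 members and a median first intron of 7300 bp. They were Adamts5, Col5a2, Col8a1, Lama4, Lamc1 and Timp3. Col5a2, a chain of collagen V, had a peak with 12.25 and 9.54. Lama4, a laminin chain of vessel basement membranes, had 6.77 and 9.54, Lamc1 had 5.23 and 4.91, and Timp3, an inhibitor of matrix proteases, had 4.71 and 5.10. None of the 19 passed the IDR limit, a small count beside the 3.33% of all peaks that did. Their median matched value was 4.62, below the 5.56 of all members.

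The TGF-beta and BMP pathway had members in 6 of 37 genes (16.2%), with 7 members in all. For the ligand Bmp6 the values were given above. Of the receptors, Bmpr1a had 5.42 and 9.10, Acvr1 had 7.17 and 4.30, and Bmpr1b also hosted a member. Smad3, the signal-transducing factor of TGF-beta, had 13.90 and 9.98 with heights of 22 and 17 fragments, and the ubiquitin ligase Smurf1 had 7.17 and 5.10. Of these 7, the Bmp6 peak alone passed the IDR limit.

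Guidance genes with members were 7 of 42 (16.7%), with 23 members. Besides Sema3e, the semaphorins Sema6a (12.95 and 10.89) and Sema3d (12.95 and 9.10) had peaks, as had the ephrin ligand gene Efna5 (8.52 and 7.56, 1 of 6 members) and the netrin receptor Dcc (6.15 and 8.25). Sema3e alone held 5 members.

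Growth factor genes with members were 7 of 29 (24.1%), with 18 members. The ligand Nrg1 had a peak with 17.86 and 14.71, its receptor Erbb4 one with 12.45 and 15.72, and Egfr one with 10.14 and 10.89. Nrg1 lay in a first intron of 915330 bp and its peak was 337061 bp from the TSS. The receptor genes Fgfr2 (12.03 and 13.05) and Met (12.95 and 6.86) also had peaks. Of the 18, 1 peak in Nrg1 and 1 in Erbb4 passed the IDR limit.

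Among transcription factors, 8 of 54 genes found in the gene models (14.8%) hosted 20 members. Twist2 (15.36 and 12.89) and Zeb1 (15.85 and 12.76), factors of mesenchymal identity, had peaks that passed the IDR limit. Rbpj, the DNA-binding partner of Notch, held 6 members, the strongest with 11.12 and 15.72. Runx2, a runt domain factor of skeletal and vascular mesenchyme, had 10.23 and 16.74, and Elk3, an ETS cofactor of SRF, had 9.81 and 9.10. Of the 19 ductus arteriosus regulators, 3 hosted 5 members: the receptor Notch2 (6.21 and 11.81), the potassium channel Kcnma1 (6.15 and 9.10) and the connexin Gja5 (5.42 and 4.30). None of these 5 passed the IDR limit. Beside the 5.56 of all members and the 4.62 of the matrix list, the median matched value was 5.53 in the contractile, 5.42 in the TGF-beta and BMP, 5.10 in the guidance, 5.77 in the growth factor, 6.51 in the transcription factor and 6.15 in the ductus list.

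**Figure D3:**
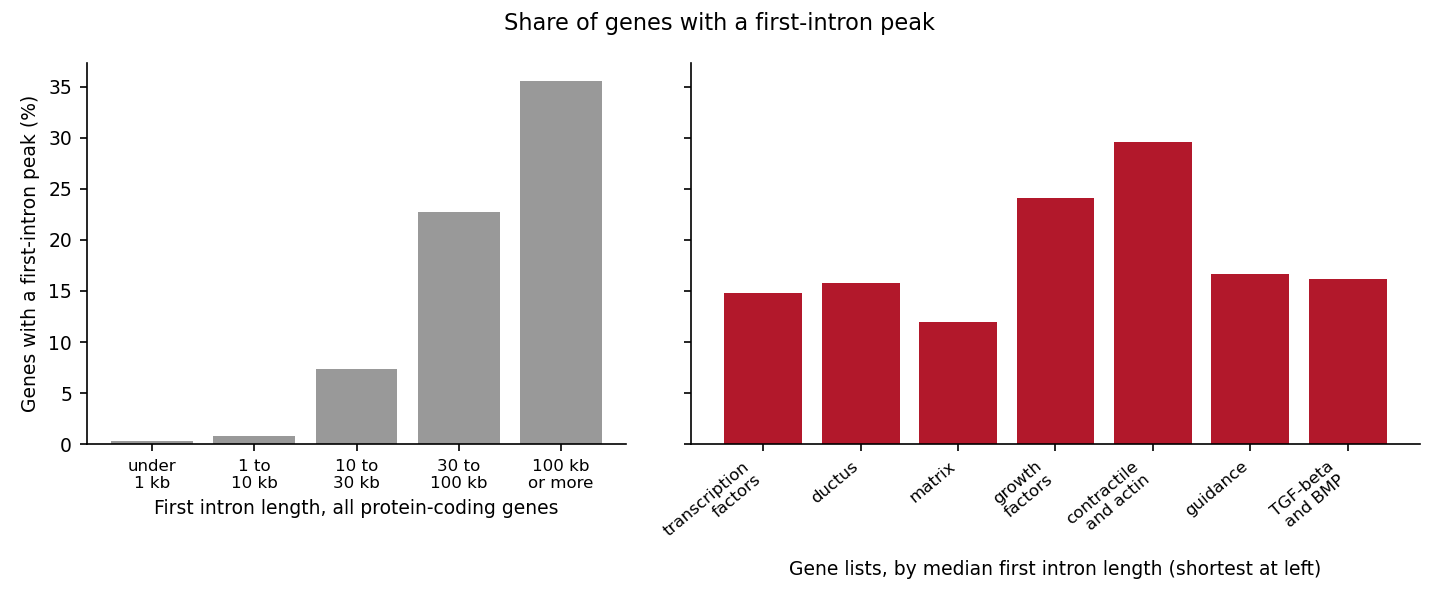
The y axis gives the percent of genes that hosted at least 1 first-intron peak, at left for all 20320 protein-coding genes by the length of the principal first intron, and at right for the 7 gene lists, ordered by their median first intron length. The share rose from 0.321% to 35.5% with intron length, and the lists lay between 12% and 29.5%. The low shares of the shortest introns follow in part from the rule that classed peaks within 3 kb of a TSS as promoter peaks.

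Whether first introns held more peaks than their length would give was asked by counting peaks per Mb in principal transcripts of protein-coding genes, after exons and everything within 3 kb of a TSS had been taken out. There were 1263 peaks in 176.2 Mb of first introns (7.17 per Mb, 95% Poisson interval 6.78 to 7.58) and 3170 peaks in 600.6 Mb of later introns (5.28 per Mb, 5.10 to 5.47). At equal distance from the TSS, the ratio of first to later introns was 1.42 (95% interval 1.29 to 1.57, p = 1.95e-12, n = 16655 genes, Poisson regression with errors clustered by gene). The ratio changed with distance (p = 1.18e-07, n = 16655 genes, for equal ratios, a test added after seeing the data). Under 10 kb from the TSS first introns held 6.68 and later introns 3.06 peaks per Mb, a ratio of 2.19 (1.72 to 2.77), and from 10 to 30 kb the values were 8.23 and 4.40, a ratio of 1.87 (1.60 to 2.18). From 30 to 100 kb the values were 7.85 and 6.03, with a ratio of 1.30 (1.12 to 1.51). Beyond 100 kb they were 4.97 and 5.47, a ratio of 0.909 (0.705 to 1.17).

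Short and long genes enter these bands in different numbers, so first and later introns were also compared inside the same gene, an alternative chosen after seeing the data. Over 1557 genes with 3575 peaks the ratio was 1.39 (1.22 to 1.57, p = 4.17e-07, n = 1557 genes). By band, it was 1.29 (0.764 to 2.18, 63 genes), 1.51 (1.07 to 2.15, 203 genes), 1.23 (0.976 to 1.55, 309 genes) and 1.29 (0.979 to 1.69, 177 genes). These 4 ratios did not fall with distance in order, and 3 of their intervals include equal density.

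**Figure D4:**
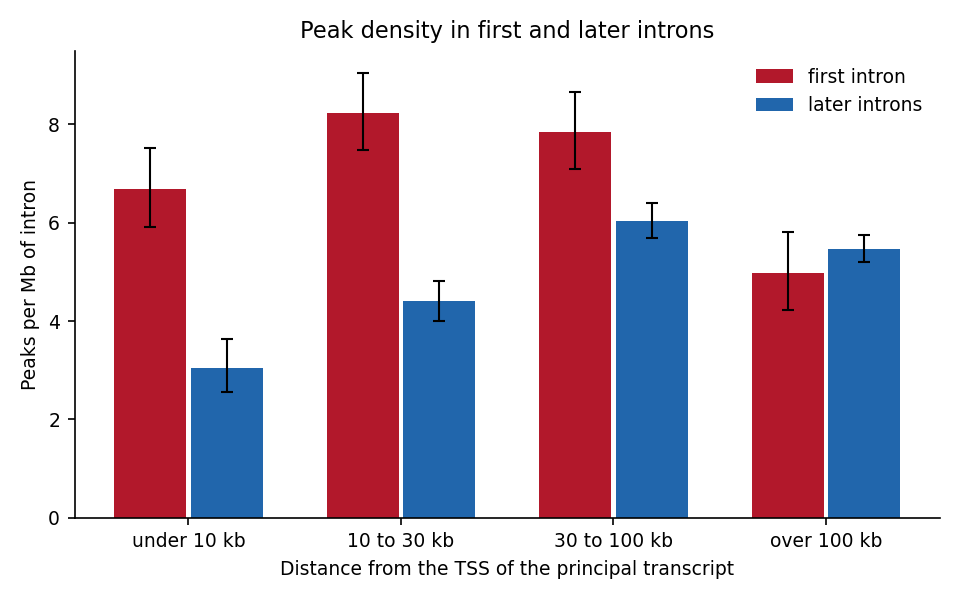
Bars give the number of peaks per Mb of intron on the y axis in first and later introns, by distance from the TSS of the principal transcript on the x axis, and lines are 95% Poisson intervals. First introns lay above later introns up to 100 kb, and beyond it the intervals overlapped.

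The mean matched −log10 p was 6.17 in first introns, 6.04 in introns 2 and later and 6.21 in distal intergenic peaks. First introns minus later introns was 0.138 (95% interval -0.00346 to 0.280, adjusted p = 0.168, n = 1765 and 3251 peaks) and first introns minus intergenic was -0.0384 (-0.171 to 0.0943, adjusted p = 0.623). All 12 such comparisons were fitted over the 13977 peaks with errors clustered by assigned gene, and their p-values were adjusted together by Benjamini-Hochberg. The replicates did not give the same difference from later introns, which was -0.0190 in the first-listed and 0.302 (adjusted p = 0.0109, n = 1765 and 3251 peaks) in the second-listed replicate. Nor did they give the same difference from intergenic peaks, which was -0.246 (adjusted p = 0.0117, n = 1765 and 5200 peaks) in the first-listed and 0.0582 in the second-listed replicate. The share of peaks that passed the IDR limit, 3.29% in first introns, was 2.71% in later introns and 3.96% in intergenic peaks, and neither difference passed the test (adjusted p = 0.335 and 0.294, n = 1765 members).

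First-intron peaks were narrower than distal intergenic peaks. Their mean width was 682 bp against 719 bp, a difference of -36.7 bp (-58.9 to -14.6, adjusted p = 0.0139, n = 1765 and 5200 peaks). Among peaks that passed the IDR limit the difference was -115 bp and did not pass the test (adjusted p = 0.569, n = 58 members). Against later introns, with 688 bp, the difference was -5.92 bp (-30.7 to 18.9, adjusted p = 0.640, n = 1765 and 3251 peaks). GC content within 100 bp of the summit was 43.7% in members, 43.3% in later introns and 43.1% in intergenic peaks. The difference from intergenic peaks was 0.554 percentage points (0.192 to 0.915, adjusted p = 0.0163, n = 1765 and 5200 peaks), but it turned to -0.792 and passed the test in that direction (adjusted p = 0.000144, n = 1765 members) once distance to the TSS and chromosome were held equal. It did not pass with 1 peak for each gene and class (0.0515) or with members in basic transcripts only (0.461). The difference from later introns was 0.424 percentage points (0.0411 to 0.806, adjusted p = 0.120, n = 1765 and 3251 peaks). It passed the test in the first-listed (0.589) and in the second-listed replicate alone (0.473), and turned to -0.0816 with distance and chromosome held equal.

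AP-1 motifs were concentrated at the summits. A match with its middle within 100 bp of the summit was held by 270 of 1765 members (15.3%, 95% Wilson interval 13.7% to 17.1%), and by 14.7% of all peaks. The same number of positions 1000 bp away held a match in 73 members (4.14%, 3.30% to 5.17%). The ratio was 3.70 (adjusted p = 5.16e-28 over 6 motifs, exact two-sided McNemar test over peaks). The test did not separate members from later introns (16.6%, difference -1.28 percentage points, -3.41 to 0.842, adjusted p = 0.335, n = 3251) or from intergenic peaks (16.7%, -1.38, -3.28 to 0.526, adjusted p = 0.294). The AP-1 matches shown in the sequences of Bmp6, Sema3e, Parp16, Kcnab1 and 1810058I24Rik belong to this group. Of the 58 members that passed the IDR limit, 18 (31.0%, 20.6% to 43.8%) held a match and 0 held one in the flanks, which allows a share of up to 6.21% (Wilson). The other 1707 members held one in 14.8% at the summit and 4.28% in the flanks. Within the IDR limit, the summit share of members minus that of later introns was 2.63 percentage points, and minus intergenic peaks 6.28. Neither difference passed the test, so a higher share in first introns than in these classes was not shown at this limit.

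TEAD motifs were held by 152 members at the summit (8.61%, 7.39% to 10.0%), against 7.63% of all peaks, and by 54 in the flanks (3.06%, 2.35% to 3.97%). This ratio was 2.81 (adjusted p = 9.83e-12, exact McNemar test). The share was 7.51% in later introns and 7.92% in intergenic peaks, and the differences of 1.11 (-0.454 to 2.67, adjusted p = 0.294, n = 3251) and 0.689 percentage points (-0.801 to 2.18, adjusted p = 0.438) did not pass the test. Both motifs were found together in 20 members, either in 402 (22.8%), and neither in 1363 (77.2%). Thus most members, the strongest at Ptprm and Cald1 among them, held none of the AP-1 or TEAD words in this window. Other spellings of these sites were not searched, so the shares count only these words.

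The other motifs were nearer to their flanks. RUNX (TGTGGTT) was held by 132 members at the summit and 87 in the flanks, a ratio of 1.52 (exact adjusted p = 0.00307), beside 6.87% of all peaks and 7.48% of members. The words TTTCAT and TTTCCT are only 1 possible reading of a shorter notation in the study and may not be its sequence. Either word was held by 796 (45.1%) and 697 (39.5%), a ratio of 1.14 (exact adjusted p = 0.00173), beside 44.0% of all peaks. At the summit of the second-listed replicate this ratio was 1.05 and did not pass. RBPJ (TGGGAA), whose letters can overlap the TEAD words that begin with GGGAA, was held by 362 and 309, a ratio of 1.17 (exact adjusted p = 0.0357), beside 20.3% of all peaks and 20.5% of members. The RBPJ ratio did not pass with windows of 50 bp (1.07) or flanks 3000 bp away (1.13). The CArG box, the site of the SMC regulator SRF, was held by 20 and 16 members, a ratio of 1.25 (exact adjusted p = 0.618), beside 1.5% of all peaks. Those CArG counts are low (1.13% at the summit, 0.735% to 1.74%), so a small difference could not be seen. These 4 are from the same McNemar test. These motif matches are descriptions of sequence and do not show which factor was bound.

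**Figure D5:**
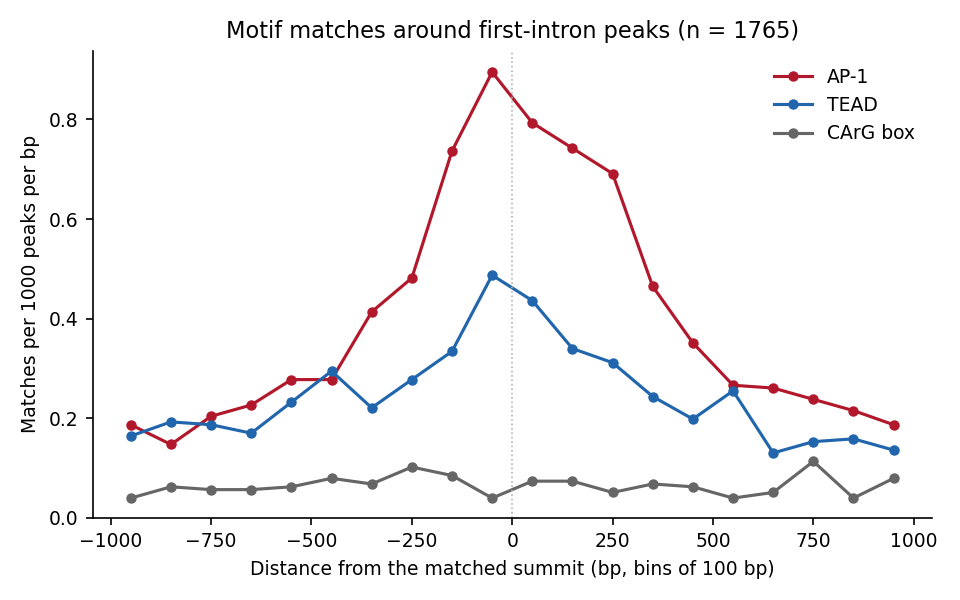
The y axis gives motif matches per 1000 first-intron peaks per bp, and the x axis the distance from the matched summit in bins of 100 bp, for AP-1, TEAD and the CArG box. AP-1 rose from 0.187 in the outermost bins to 0.895 beside the summit and TEAD from 0.164 and 0.136 to 0.487, and the CArG box stayed low throughout.

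Within the members, AP-1 content and the distance between replicate summits were read by strength. In the strongest 176 members, 21.6% (16.2% to 28.2%) held AP-1, and in the weakest 176, 11.4% (7.48% to 16.9%). TEAD was held by 9.66% (6.12% to 14.9%) of the former and 7.39% (4.37% to 12.2%) of the latter. Replicate summits lay a median of 41.5 bp apart in the strongest and 153 bp in the weakest. Among the 523 members whose replicate summits were within 50 bp of each other, 38 (7.27%) passed the IDR limit, and among the 347 with summits over 300 bp apart 3 (0.865%) did. By distance from the host TSS, the median matched value was 5.53 under 10 kb, 5.6 from 10 to 30 kb, 5.65 from 30 to 100 kb and 5.56 beyond. Lone members of a host held AP-1 in 18.9% (16.1% to 22.1%), members of hosts with 2 in 12.6% (9.82% to 15.9%), and members of hosts with 3 or more in 13.6% (11.2% to 16.4%). For TEAD the shares in the same order were 7.47%, 10.4% and 8.55%. Peaks in lincRNA hosts had a median of 5.42 and those in protein-coding hosts 5.63. By host, AP-1 was held by 15.2% of members in protein-coding genes, 14.4% in lincRNAs, 16 of 64 (25%, 16% to 36.8%) in antisense transcripts and 4 of 49 (8.16%, 3.22% to 19.2%) in processed transcripts. These splits are descriptions with no test.

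By chromosome, members made up 44.2% of intronic peaks on chromosome 9 and 28.9% on chromosome 5. The X chromosome held 3 members among 31 intronic peaks (9.68%), of 93 peaks in all.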

How the data were processed

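Libraries were ChIP-Seq of 2 PRDM6 ChIP and 2 Input samples. The authors aligned 151 base paired reads to mm10 with BWA (mapping quality of at least 13), called peaks in each ChIP replicate against its input with MACS2 (p-value limit 0.001), and matched both replicates with IDR. The deposited list held a scaled IDR score, the −log10 p-value of each replicate, their smaller value for the matched peak, and −log10 IDR values. In the deposited list scores from 540 up passed the global IDR limit of 0.05, and scores from 830 up that of 0.01. The columns meant for signal and q-value were placeholders, and the annotation's q-value column repeated the second-listed replicate's −log10 p-value. Replicates are named by their order, since the list did not tie them to samples, and it held no Input value. Read totals were not given in the sources used here. Part of the depth was recovered as fragment heights, because MACS2 p-values are Poisson tails (tolerance 0.0002 on −log10 p).

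Members were annotation rows of intron 1, checked against GENCODE M21. Sequence came from GRCm38, the same build as mm10. Class differences were least squares fits over all peaks with errors clustered by assigned gene, motifs were compared by an exact McNemar test, and densities by Poisson regression over APPRIS principal transcripts with bands of distance from the TSS. Wilson and Poisson intervals (95%) cover counting error only, and peaks are not replicates, so p-values here do not measure spread between cultures. Alternatives were an IDR limit, each replicate alone, covariates, 1 peak per gene, stricter membership, left-out chromosomes, other motif windows and flanks, and other density fits. Named peaks were the 10 strongest members, the hosts with most members (7 with a tie) and up to 5 hosts per gene list by matched value. Sequences and peaks said to be chosen after their values were seen fall outside this rule, and some items that it names are not reported here. Members, lists and tests were chosen with earlier results of these data known. The class fit without covariates, the motif search with its McNemar test, the density fits and the recovery of heights were tested on simulated data. The software was statsmodels 0.14.6, SciPy 1.17.1, pysam 0.24.0, matplotlib 3.10.9, pandas 2.3.3 and NumPy 2.4.6 under Python 3.11.15.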

Additional observations from a re-analysis of the deposited data

How the results depend on the processing

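Of 120 alternative values, 91 kept their direction and their side of the threshold, among them every alternative for the density ratio but 1 and every computed AP-1 ratio at the summit. Class differences are first introns minus the other class. Within the IDR limit of 0.05 the width difference from intergenic peaks was -115 bp and its GC difference 1.32, neither past the threshold, while the AP-1 differences turned to 2.63 (later introns) and 6.28 (intergenic) and the TEAD differences to -3.88 and -5.46; fewer peaks were tested. The same limit took TEAD (5.00), TTTCAT or TTTCCT (1.44), RUNX (1.5) and RBPJ (1.46) at the summit out of significance and left the CArG box at 0, with no ratio for AP-1, whose flanks held 0 matches. In the first-listed replicate alone, strength differed by -0.0190 from later introns and by -0.246 from intergenic peaks, the latter past the threshold, and in the second-listed by 0.302, past it, and 0.0582. GC differed from later introns by 0.589 and 0.473 in these, both past the threshold. With distance and chromosome as covariates the GC differences turned to -0.0816, not past the threshold, and -0.792, past it, with 1 peak for each gene and class that from intergenic peaks was 0.0515, no longer past it, and AP-1 against later introns 0.0454, and with the stricter membership the GC difference from intergenic peaks was 0.461, also no longer past it. A window of 200 bp turned TEAD against intergenic peaks to -0.320. RBPJ fell below the threshold with 50 bp windows (1.07) and flanks 3000 bp away (1.13), and TTTCAT or TTTCCT at the second-listed summit (1.05). The CArG ratio turned to 0.952 with those flanks and 0.909 at the first-listed summit. Density turned to 0.909 beyond 100 kb. The separate density fits by distance band, the test for equal ratios and the fit within genes were chosen after seeing the data. Where no cause is given, the cause was not tested. No paired analysis was possible because the list gave no value of the Input group.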

Other observations

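Runs of a repeated pair of bases, at least 20 bases long, were searched after such runs had been seen at the strongest summits. They were found in the 201 bases around the summit of 99 members (5.61%), and in windows of the same length 1000 bp away in 64 (3.63%) and 63 (3.57%). Among the 58 members that passed the IDR limit of 0.05, 10 (17.2%) held such a run at the summit, and 3 and 0 in the flanking windows. The summits at which runs were first seen are among these 58, so this share partly restates that observation. Later introns held runs in 3.84% of summits, intergenic peaks in 4.73% and all peaks in 4.30%. Reads in such runs can be hard to place, and whether this affected the peaks was not tested.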
